A study of Homo sapiens with 4 samples.

Results

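Nuclear receptors and their coregulators were followed as a set of 41 genes, 36 receptors and 5 coregulators, among the 57820 gene models of the deposited tables. The members were taken by gene symbol, a rule that uses no measured value, although the set itself was chosen with earlier results of these data known, and each symbol matched 1 gene model. The study sequenced RNA from 4 libraries of G401, an established kidney rhabdoid tumour line that lacks the SWI/SNF subunit SMARCB1, grown in DMEM with 10% serum. In 2 libraries the genotype was BRD9 KO. The other 2 were titled LacZ and labelled control, and both groups share the SMARCB1 loss of the line. BRD9 is a bromodomain subunit of a SWI/SNF complex without SMARCB1, and the question of the comparison is which transcript levels differ after its loss. Per the methods of the study, CRISPR-Cas9 lines were made with lentiviral Cas9 and guides under drug selection, while the guides of these libraries and the day of harvest were not found in the sources. The study states that no G401 clones deficient in BRD9 could be recovered, and does not say of these libraries whether the cells were a pool.

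Nuclear receptors are transcription factors with a zinc-finger domain that binds DNA and a second domain that, in many members, binds a small lipophilic ligand such as a steroid, a retinoid, a fatty acid or an oxysterol. Without ligand, several of them hold corepressors such as NCOR1, which brings histone deacetylases to the gene. With ligand, they exchange these for coactivators of the p160 family (NCOA1, NCOA2 and NCOA3). Many pair with the retinoid X receptors (RXR), others act as homodimers or monomers, and the orphan receptors have no known or no required natural ligand.

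The rounded counts of the libraries ran from 15053195 to 19559200, and 15288 genes had enough counts to be tested. The BRD9 transcript stood at 29.4 and 26.8 counts-per-million (CPM) in the 2 BRD9 KO libraries against 48.2 and 53.8 CPM in the 2 LacZ control libraries. SMARCB1 had 0 counts in all 4. Of the 5 epithelial markers 2 were tested and both were higher (KRT8 and KRT18). The summed level of the list was 6452 to 6482 CPM in BRD9 KO and 4886 to 4931 CPM in LacZ control. The untested KRT19 had 0 and 1 counts in BRD9 KO against 4 and 5 in LacZ control. CDH1 had 2 and 0 counts against 6 and 1, and EPCAM 6 and 4 against 3 and 6. Of the 6 rhabdoid and mesenchymal markers 4 were tested and 3 were lower (SMARCA4, VIM and CDKN2A). The summed levels were 1825 to 1830 CPM in BRD9 KO and 2421 to 2432 CPM in LacZ control. FN1, also tested, lay above both controls, at 2.46 and 2.20 CPM against 1.66 and 1.38 CPM. It did not pass (log2 fold change 0.62, edgeR adjusted p = 0.0911, and 0.044 with at least 1 CPM in all 4 libraries). Of the 8 kidney lineage markers 2 were tested and 1, PAX2, was lower (summed levels of 12.7 to 13.1 and 22.0 to 23.2 CPM), and WT1, SIX2 and OSR1 were at 0. Of the 7 blood and endothelial markers 1 was tested, the lysosomal gene CD68, and was higher (191 to 194 against 157 to 164 CPM for the list), while PTPRC, CD3E, CDH5 and KDR were at 0. The part of these differences in the results below was not tested. In bulk RNA, fewer cells with a transcript and less of it per cell cannot be told apart.

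Orphan receptors had the highest levels among the receptors of the set. Levels are given here in the authors' transcripts-per-million (TPM), which divide by transcript length and so allow genes to be set side by side. NR2F1 (COUP-TFI), an orphan receptor of neural and mesenchymal development, led the set with 104 and 107 TPM in BRD9 KO and 117 and 119 TPM in LacZ control. Its lowest library lay above the highest of the next gene, NR2C1 (the testicular receptor TR2), which ranged from 78.1 to 91.0 TPM. The ranges of NR2C1 and of the third, the corepressor NCOR1 (69.4 to 80.2 TPM), overlapped. NR2F6 (EAR2) followed with a mean of 53.8 TPM over the 4 libraries and NR2F2 (COUP-TFII) with 28.5 TPM. NR2F1, NR2C1, NR2F6 and NR2F2 together made up between 57.9% and 60.2% of the TPM summed over the 36 receptors of the set in each library, a sum that leaves out receptors outside it such as RARG and RARA. In all, 23 members had a mean of at least 1 TPM, 18 of them receptors.

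**Figure D1:**
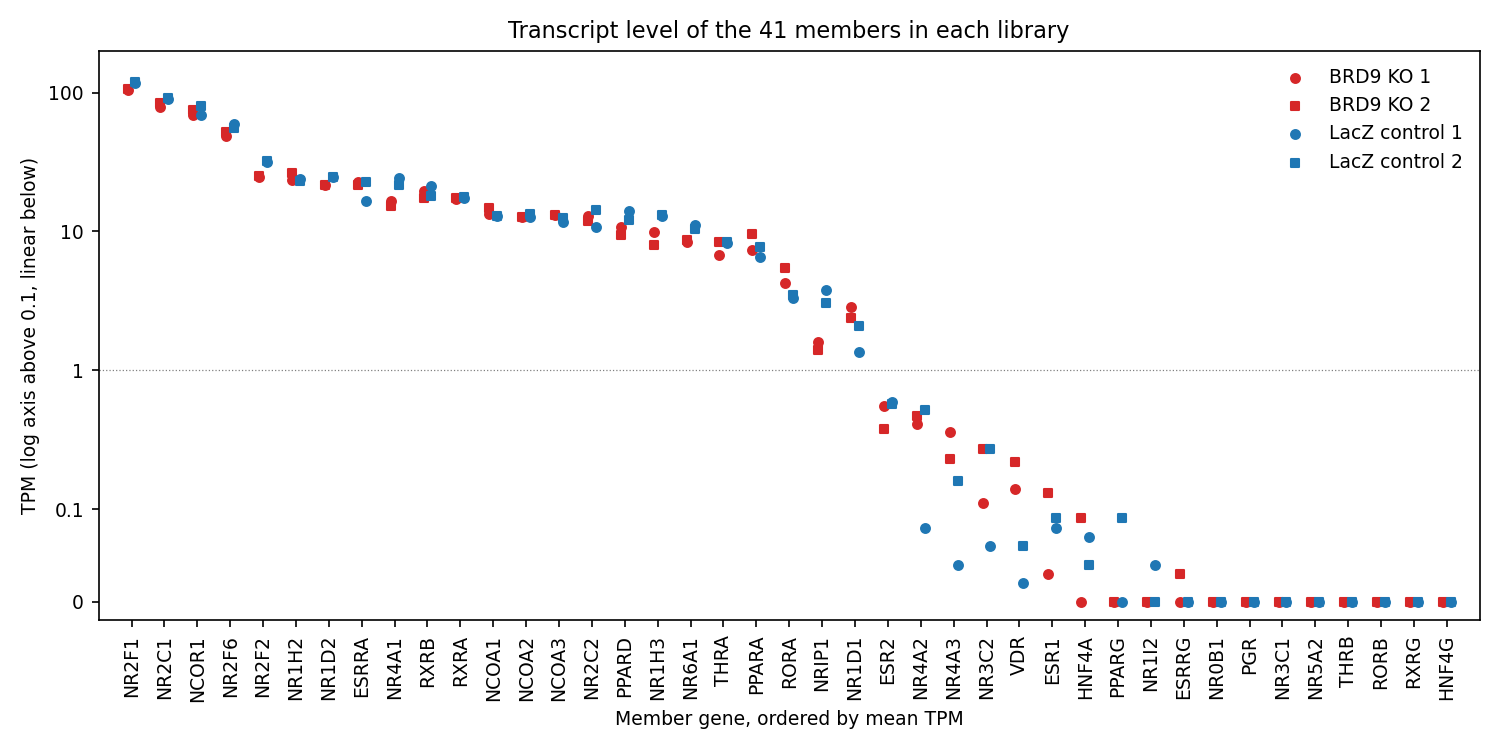
Level of each of the 41 members in the 4 libraries, in TPM on an axis that is logarithmic above 0.1 and linear below, ordered by the mean of the 4. Red marks are BRD9 KO and blue marks LacZ control (circles replicate 1, squares replicate 2); the dotted line is 1 TPM, which 23 members exceed.

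A further 16 members had too few counts to be tested, and 8 of them had none in any library. The 8 were NR0B1 (DAX1), NR3C1 (the glucocorticoid receptor), NR5A2 (LRH-1), PGR (the progesterone receptor), RXRG, RORB, THRB and HNF4G. A count of 0 allows at most 0.199 CPM in the shallowest library, for counting error only. Among the 5 steroid receptors of the set, 4 were untested. NR3C2, the mineralocorticoid receptor, had 7 and 2 counts in BRD9 KO and 3 and 1 in LacZ control, ESR1 (oestrogen receptor alpha) had 2 and 7 against 4 and 5, and only ESR2 (oestrogen receptor beta) reached the test, at 1.03 and 0.857 CPM against 1.19 and 0.9 CPM. The libraries of ESR2 overlapped (log2 fold change -0.14, standard error (SE) 0.39, edgeR adjusted p = 0.816). NR1I2 (the xenobiotic receptor PXR), PPARG and ESRRG had 1 count each over the 4 libraries. HNF4A, a receptor of liver and kidney epithelium, had 0 and 1 counts in BRD9 KO against 3 and 2 in LacZ control, below both (ratio of the scaled sums 0.177, 95% interval 0.00375 to 1.58, for counting error only).

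VDR, the vitamin D receptor, had 7 and 8 counts in BRD9 KO against 1 and 2 in LacZ control. Both knockout libraries were the higher ones, and the ratio of the scaled sums was 4.43 with a 95% interval of 1.25 to 23.9 that covers counting error only. Tested with no filter on low counts, VDR missed the threshold (edgeR adjusted p = 0.109). The same held for NR4A2 (NURR1), at 11 and 15 against 2 and 7 counts (ratio 2.56, interval 1.16 to 6.21, edgeR adjusted p = 0.111 with no filter).

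Among the 25 members that could be tested, 10 were lower and 2 were higher in BRD9 KO at an adjusted p under 0.05. Over all genes tested, 18.1% were lower and 20.5% higher, 38.6% in all. The median log2 fold change of the tested members was -0.06 and that of all genes tested -0.01. Of the 25 tested members 3 were called with a difference of at least 1.5-fold (NRIP1, NR1H3 and NR1D1), as were 6.86% of all tested genes. The knockout libraries lay below both controls in 12 tested members and above both in 7 (34.5% and 34.1% of all tested genes). DESeq2, which tested 23 members, called 8 lower and 0 higher (0 higher also at an unadjusted p under 0.05, against 5 with edgeR). Of the 13806 genes that DESeq2 tested, 1437 were lower and 2136 higher, 3573 in all.

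**Figure D2:**
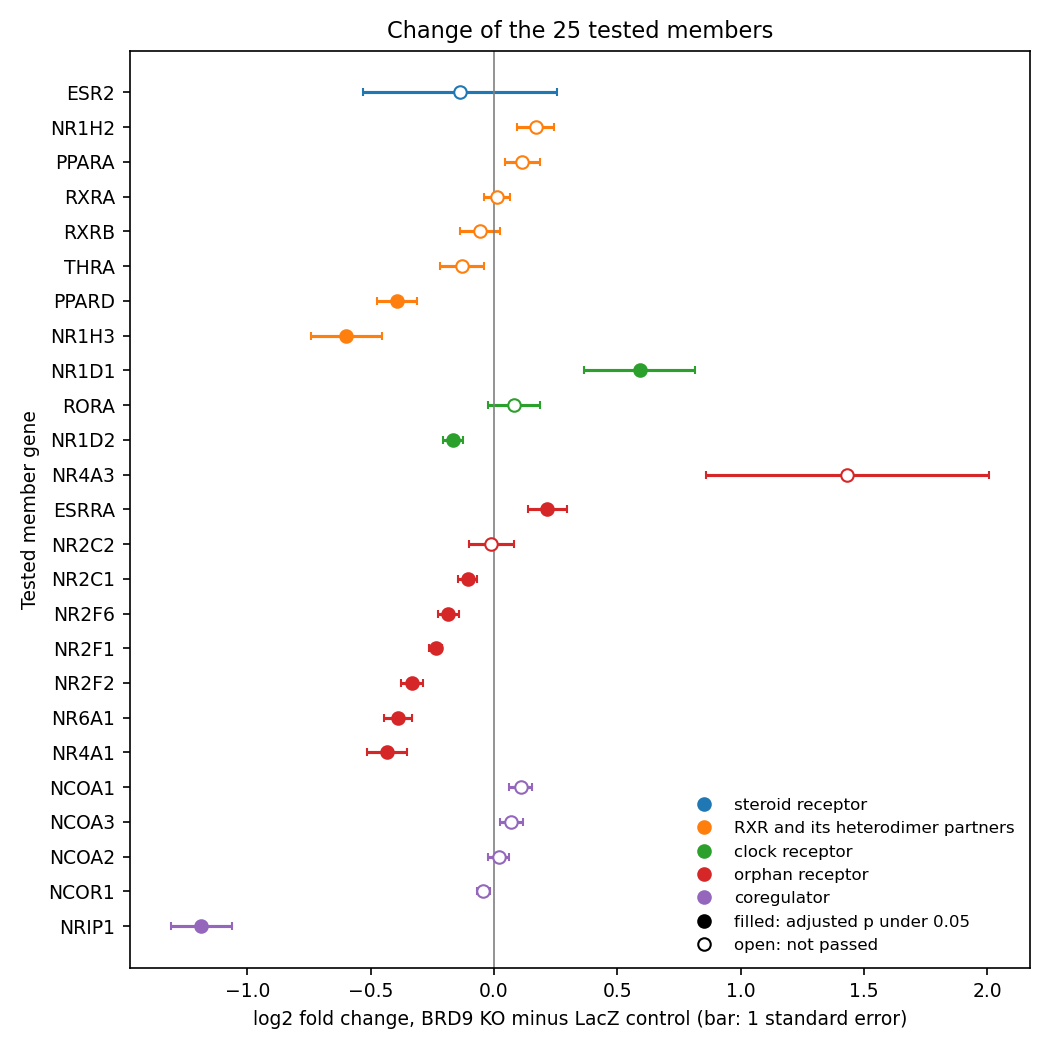
Log2 fold change (BRD9 KO minus LacZ control) of the 25 tested members with 1 standard error, grouped and coloured by role; filled marks passed the edgeR test at an adjusted p under 0.05. Orphan receptors lie mostly left of 0, NRIP1 is farthest left at -1.19, and NR4A3 is farthest right at 1.43 without passing.

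Of 9 tested orphan receptors 6 were lower and 1 was higher, where 18.1% and 20.5% of all tested genes were. NR2F1 (chromosome 5, 92918928 to 92930317, plus strand, GRCh37, the sequence of hg19) stood at 166 and 164 CPM in BRD9 KO against 195 and 194 CPM in LacZ control. The replicates of each group were within 2 CPM of each other, and the knockout kept 84.8% of the control level. This is a log2 fold change of -0.24 (SE 0.03) (edgeR adjusted p = 4.14e-07). NR2F2, its closest relative, which directs mesenchymal and vascular development, fell from 65.3 and 69.9 CPM to 53.8 and 53.6 CPM (chromosome 15, 96869167 to 96883492, plus strand; log2 fold change -0.33, SE 0.04, edgeR adjusted p = 6.07e-06). NR2F6, the third of the family, stood at 68.8 and 72.8 CPM against 82.9 and 78.1 CPM (log2 fold change -0.19, edgeR adjusted p = 0.00162). All 3 COUP family genes were thus lower, with no overlap between groups. The knockout libraries lay below both controls in 34.5% of all tested genes. The NR2F6 call was lost without LacZ control replicate 1 (edgeR adjusted p = 0.0638, 0.000283 to 0.142 across the 13 alternative settings of the processing).

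NR6A1 (GCNF), a repressor of pluripotency genes in the early embryo, had 30.3 and 30.6 CPM in BRD9 KO against 39.7 and 40.0 CPM in LacZ control. It fell by 0.39 on the log2 scale with an SE of 0.06 (edgeR adjusted p = 2.25e-05). NR2C1 was lower by far less, at 74.7 and 76.5 CPM against 79.7 and 82.7 CPM, and its partner NR2C2 (TR4) did not differ beyond the spread, at 16.7 and 15.3 against 15.4 and 16.9 CPM (log2 fold change -0.01, SE 0.09). The NR2C1 call (log2 fold change -0.11, edgeR adjusted p = 0.0363) did not survive leaving out BRD9 KO replicate 1 (adjusted p = 0.196), LacZ control replicate 1 (0.0608) or LacZ control replicate 2 (0.267), with an adjusted p of 0.0166 to 0.32 across settings. Of the exon sequence of NR2C2 in GENCODE v44 (11822 bases), 60.5% is shared with exons of MRPS25 on the opposite strand. The library kit does not mark strand, so that the NR2C2 count is uncertain. RSEM assigned NR2C2 a mean transcript length of 2023 to 2420 bases, and the share within the counted transcripts may differ.

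Of the NR4A receptors, immediate early genes whose activity follows their abundance, only NR4A1 was called. NR4A1 (NUR77) was lower, at 18.4 and 17.8 CPM in BRD9 KO against 26.01 and 22.9 CPM in LacZ control (chromosome 12, 52416616 to 52453291, plus strand). The groups did not overlap, and the log2 fold change was -0.43 with an SE of 0.08 (edgeR adjusted p = 0.000273). NR4A3 (NOR1) had only 20 and 11 counts in BRD9 KO and 2 and 8 in LacZ control. It could be tested only because of the knockout libraries, and a difference was therefore built into its passing the filter (log2 fold change 1.43, SE 0.57, edgeR adjusted p = 0.055, and 0.0461 with the replicate number as a block, 0.0461 to 0.39 across settings).

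ESRRA (ERR alpha), the orphan receptor that drives mitochondrial genes, was the only orphan receptor called higher. It had 25.9 and 25.5 CPM in BRD9 KO against 20.4 and 23.7 CPM in LacZ control, a log2 fold change of 0.22 with an SE of 0.08 (edgeR adjusted p = 0.0353). The call rested on each of 3 libraries: it did not survive leaving out BRD9 KO replicate 1 (adjusted p = 0.112), BRD9 KO replicate 2 (0.0768) or LacZ control replicate 1 (0.311; 0.0143 to 0.492 across settings). The log2 fold change was 0.12 without LacZ control replicate 1 and 0.33 without LacZ control replicate 2.

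The retinoid X receptors, partners of many others, did not pass the test. RXRA stood at 47.8 and 44.5 CPM in BRD9 KO against 45.4 and 46.3 CPM in LacZ control (log2 fold change 0.01, SE 0.05, edgeR adjusted p = 0.874), and RXRB at 27.2 and 22.7 against 27.0 and 25.3 CPM (-0.06, SE 0.08, edgeR adjusted p = 0.63). The libraries of both overlapped.

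Of the receptors that pair with RXR, NR1H3 and PPARD were lower. NR1H3 (LXR alpha), the oxysterol sensor of cholesterol efflux, had 5.64 and 5.27 CPM in BRD9 KO against 7.96 and 8.58 CPM in LacZ control, 65.9% of the control level (chromosome 11, 47269851 to 47290584, plus strand; log2 fold change -0.60, SE 0.14, edgeR adjusted p = 0.00239). Its widely expressed relative NR1H2 (LXR beta) lay above both controls, at 25.6 and 28.7 against 23.6 and 24.5 CPM, without passing (log2 fold change 0.17, SE 0.08, edgeR adjusted p = 0.0826, and 0.0244 without BRD9 KO replicate 1, 0.0244 to 0.55 across settings). For each 100 counts of NR1H2 there were 22.1 and 18.3 counts of NR1H3 in the knockout and 33.8 and 35.05 in the control. An exact two-sided permutation test of 2 against 2 libraries cannot go below p = 0.333, the value that this and each of the ratios of counts below reached.

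PPARD, the fatty acid receptor of broad tissue distribution, showed 22.4 and 20.3 CPM in BRD9 KO and 30.1 and 26.2 CPM in LacZ control (chromosome 6, 35310335 to 35395968, plus strand; log2 fold change -0.39, SE 0.08, edgeR adjusted p = 0.000649). PPARA, which drives fatty acid oxidation, was at 24.3 and 24.1 against 22.3 and 22.4 CPM and did not pass (0.12, SE 0.07, edgeR adjusted p = 0.223). For each 100 counts of PPARA there were 92.2 and 84.0 counts of PPARD in the knockout and 135 and 117 in the control, with no overlap. THRA, the thyroid hormone receptor alpha, lay below both controls at 14.7 and 15.6 against 16.5 and 16.6 CPM and did not pass (-0.13, SE 0.09, edgeR adjusted p = 0.266).

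The clock receptors NR1D1 and NR1D2 (REV-ERB alpha and beta), which repress the gene of the clock activator BMAL1, had calls of opposite sign with edgeR, and DESeq2 called neither (adjusted p of 0.23 and 0.084). NR1D1 (chromosome 17, 38249046 to 38256842, minus strand) had 4.62 and 3.86 CPM in BRD9 KO against 2.19 and 3.42 CPM in LacZ control, a log2 fold change of 0.59 with an SE of 0.23 (edgeR adjusted p = 0.0462). NR1D2 had 66.0 and 63.6 CPM against 71.1 and 74.5 CPM (-0.17, SE 0.04, edgeR adjusted p = 0.00319). For each 100 counts of NR1D2 there were 6.99 and 6.07 counts of NR1D1 in the knockout and 3.08 and 4.59 in the control. The NR1D1 call was also lost with limma-voom (adjusted p = 0.062) and did not survive leaving out BRD9 KO replicate 1 (0.45, adjusted p = 0.234) or LacZ control replicate 1 (0.32, adjusted p = 0.358), and the log2 fold change became 0.96 without LacZ control replicate 2 (adjusted p 0.0238 to 0.358 across settings). The NR1D2 call was lost without LacZ control replicate 2 (adjusted p = 0.0873, 0.000984 to 0.144 across settings).

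NR1D1 and THRA lie tail to tail on opposite strands of chromosome 17, and 473 bases, or 18% of the exon sequence of NR1D1, are shared with exons of THRA. Reads from there cannot be assigned by strand. RSEM gave 31.4 and 24.7 counts of NR1D1 for each 100 of THRA in BRD9 KO and 13.3 and 20.6 in LacZ control. RORA, the receptor that activates the same clock elements, did not differ in counts (12.6 and 13.2 against 11.3 and 13.0 CPM; log2 fold change 0.08, SE 0.10, edgeR adjusted p = 0.582). In TPM its groups did not overlap, at 4.24 and 5.42 in BRD9 KO against 3.29 and 3.47 in LacZ control. The mean transcript length that RSEM assigned to RORA moved with this, at 4982 and 4118 bases against 5777 and 6213 bases.

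Among the coregulators, NRIP1 showed the largest fall of any tested member. NRIP1 (RIP140) is a corepressor that ligand-bound receptors recruit and that restrains metabolic genes. Its values were 7.28 and 6.25 CPM for BRD9 KO against 17.1 and 14.0 CPM in LacZ control, so that 43.6% of the control level remained (chromosome 21, 16333556 to 16438257, minus strand). It fell by 1.19 on the log2 scale (SE 0.12, edgeR adjusted p = 2.63e-07), and no replicate of one group reached the range of the other. With limma on the log2(TPM + 1) scale it was -0.81 and did not pass (adjusted p = 0.0663, 2.58e-21 to 0.0663 across settings).

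The other 4 coregulators did not pass the test. NCOR1 had 186 and 188 CPM in BRD9 KO against 190.1 and 195 CPM in LacZ control (log2 fold change -0.04, SE 0.03, edgeR adjusted p = 0.207). The p160 coactivators NCOA1, NCOA2 and NCOA3 had log2 fold changes of 0.11, 0.02 and 0.07 with an SE of 0.05, 0.04 and 0.05 (edgeR adjusted p of 0.0725, 0.771 and 0.26). NCOA1 passed with no filter on low counts (edgeR adjusted p = 0.0497, 0.0497 to 0.467 across settings). For each 100 counts of NCOR1 there were 3.93 and 3.32 counts of NRIP1 in the knockout and 8.97 and 7.19 in the control.

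**Figure D3:**
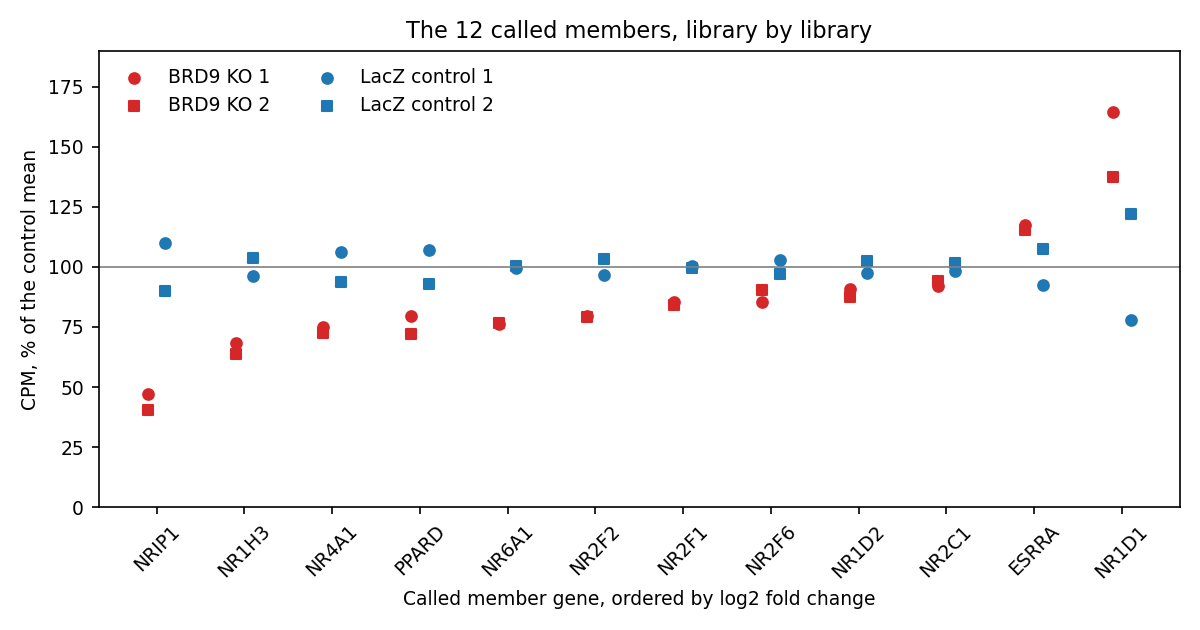
The 12 called members in each library, as a percentage of the mean CPM of the 2 LacZ control libraries (line at 100), ordered by log2 fold change. Red marks are BRD9 KO and blue marks LacZ control; NRIP1 sits lowest in the knockout, at 47.0% and 40.3%, and the controls of NR1D1 are spread from 78.1% to 122%.

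Exons of 6 called members overlap those of another tested gene, over 18% of the exon sequence of NR1D1, 10.3% of NR4A1, 9.16% of ESRRA, 6.61% of NRIP1, 4.17% of NR1H3 and 3.61% of NR2F1, where strand cannot assign the reads.

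The receptors, corepressors and coactivators outside the set were counted from lists, against 20.5% of all tested genes higher and 18.1% lower. With limma on the log2(TPM + 1) scale these background numbers were 966 higher and 770 lower of 17975 genes. Of 12 further nuclear receptors only the retinoic acid receptors RARG and RARA had enough counts, and 0 passed with edgeR (0 of them at an unadjusted p under 0.05, and 0 by DESeq2 and limma-voom). RARG was at 41.1 ± 1.03 CPM in BRD9 KO and 43.9 ± 0.753 CPM in LacZ control (SD, n = 2), and RARA at 9.08 ± 0.287 and 8.29 ± 0.00927 CPM (SD, n = 2). Of 12 corepressor genes 4 were higher and 3 lower (median log2 fold change 0.03). The lower ones included TBL1XR1 (-0.18) and TBL1X (-0.31), which are subunits of the NCOR1 complex, and the scaffold SIN3A (-0.15). HDAC1, a deacetylase of other corepressor complexes such as that of SIN3A, rose by 0.09 on the log2 scale. The 4 higher became 1 without LacZ control replicate 1 (HDAC1 among those lost) and 2 with either BRD9 KO replicate 1 or the second control left out. DESeq2 called 1 of them higher and limma on log2(TPM + 1) values called 0. The 3 lower became 2 with DESeq2, where SIN3A was lost, and 0 with limma on log2(TPM + 1) values.

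Of 17 tested coactivators 7 were higher and 2 lower (median 0.05), where 20.5% and 18.1% of all tested genes were. PPARGC1B (PGC-1 beta), a partner of ERR alpha in mitochondrial biogenesis, rose from 18.7 ± 2.15 to 29.9 ± 1.13 CPM (SD, n = 2), or by 0.67 on the log2 scale (SE 0.08, edgeR adjusted p = 1.44e-06). PPRC1, of the same family, rose by 0.36 and NCOA4, the ferritin autophagy receptor first described as a coactivator, by 0.24 on the log2 scale, and PNRC2 fell by 0.27. Neither PPARGC1B nor PNRC2 passed with limma on log2(TPM + 1) values.

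The circadian clock genes that REV-ERB and ROR receptors work with had 8 of 15 tested members higher and 2 lower. Over all tested genes 20.5% were higher and 18.1% lower. The median log2 fold change of the clock genes was 0.29. BHLHE40 and BHLHE41, repressors of the clock activators, rose from 35.04 ± 0.764 to 71.2 ± 1.71 CPM and from 56.1 ± 0.0697 to 93.4 ± 1.32 CPM (SD, n = 2; log2 fold changes of 1.02 and 0.73, edgeR adjusted p of 2.41e-12 and 1.25e-11). PER3, a period gene, rose from 46.5 ± 2.67 to 86.8 ± 1.64 CPM (SD, n = 2; 0.90, edgeR adjusted p = 3.67e-12), and CSNK1E, a kinase that acts on period proteins, was at -0.30. With limma on the log2(TPM + 1) scale 3 clock genes were higher, and without LacZ control replicate 1 the number was 5.

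The chaperones that hold steroid receptors in a ligand-ready form had 10 of 12 members higher and 1 lower (median 0.15). Over all tested genes 20.5% were higher and 18.1% lower. HSPA8 rose by 0.69 on the log2 scale, DNAJA1 by 0.50, FKBP4 by 0.26 and HSPA4 by 0.14. With limma on the log2(TPM + 1) scale, where 966 of all 17975 genes were higher, 4 were.

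**Figure D4:**
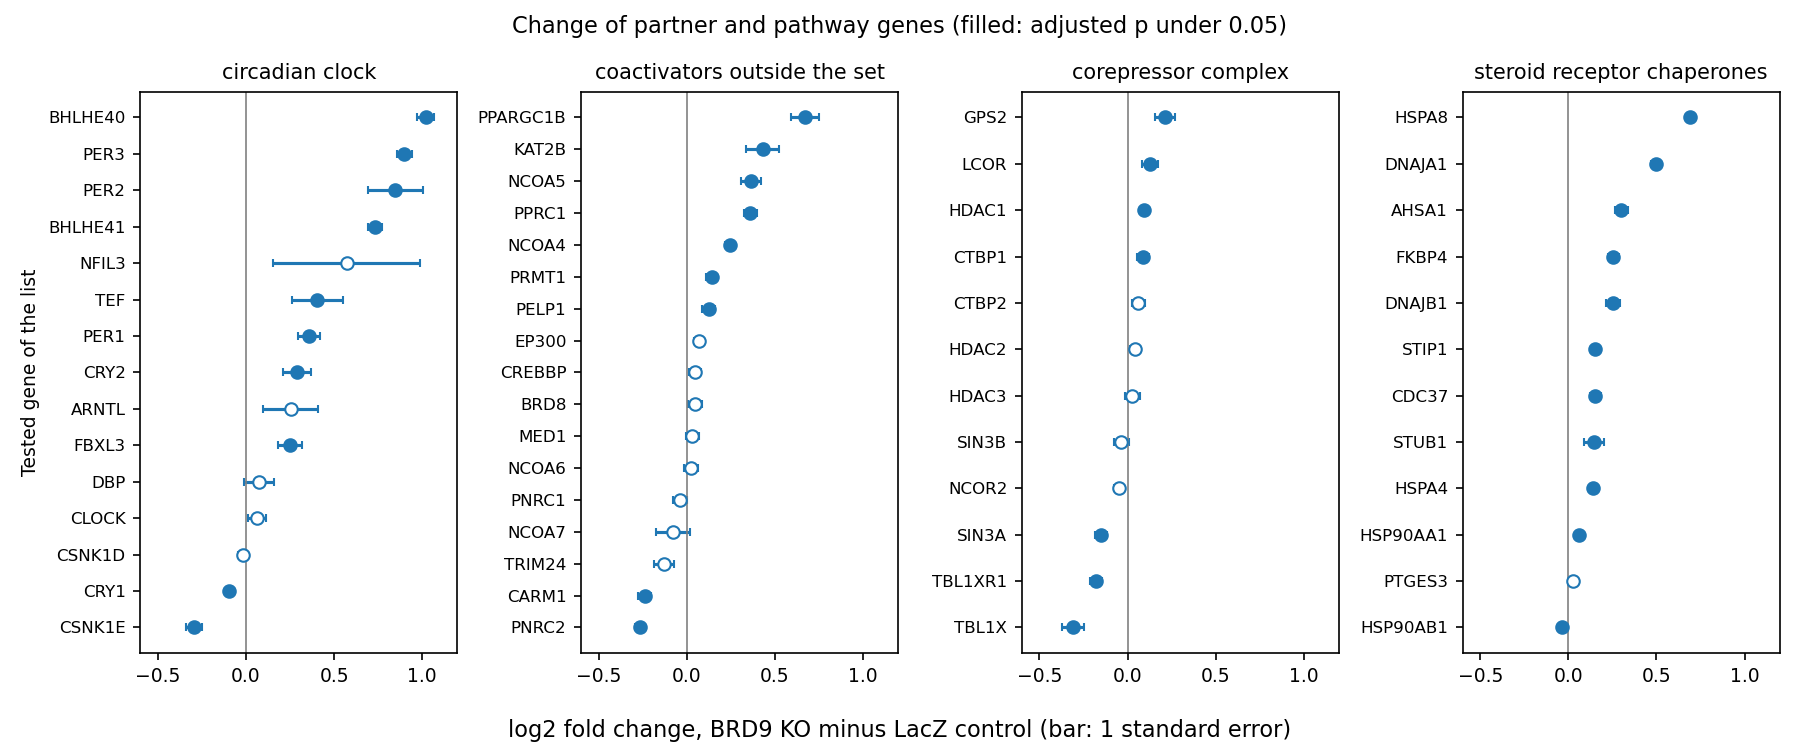
Log2 fold change (BRD9 KO minus LacZ control) with 1 standard error for the tested genes of the circadian clock, coactivator, corepressor and steroid receptor chaperone lists; filled marks passed the edgeR test at an adjusted p under 0.05. Of 15 clock genes 8 are filled right of 0, as are 7 of 17 coactivators, 4 of 12 corepressor genes and 10 of 12 chaperones. Of all tested genes 20.5% were called higher.

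Genes known as targets of the receptors moved in both directions, where 20.5% of all tested genes were higher and 18.1% lower. Of 6 tested targets of LXR 2 were higher and 3 lower (median -0.07): the desaturase gene SCD fell from 2879 ± 18.5 to 2382 ± 0.143 CPM (SD, n = 2) and SREBF1, the lipogenic regulator, fell by 0.17 on the log2 scale, while APOE rose by 0.29 and APOC1, another apolipoprotein gene, by 0.15 (not past the threshold with BRD9 KO replicate 2 or LacZ control replicate 2 left out). The efflux transporter gene ABCA1, a defining target outside the naming rule and chosen with its values known, had 0 counts in each of the 4 libraries. Of 9 tested targets of PPAR receptors 3 were higher and 3 lower (median -0.01), with CPT1A, which admits fatty acids to mitochondria, at 0.52 and the carrier gene UCP2 at -0.31. The 3 lower became 1 with DESeq2, with BRD9 KO replicate 2 left out and with either control library left out. ACADVL, an acyl-CoA dehydrogenase gene, rose by 0.13 on the log2 scale.

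Of 14 mitochondrial targets of ERR receptors 8 were higher and 2 lower (median 0.06), and 1 was lower with DESeq2 and with BRD9 KO replicate 2 or LacZ control replicate 2 left out. With limma on the log2(TPM + 1) scale 4 of these targets were higher and 0 lower, where 966 and 770 of all 17975 genes were. With edgeR 20.5% of all tested genes were higher and 18.1% lower. UQCRC2, a core subunit of respiratory complex III, rose from 391 ± 2.62 to 622 ± 6.61 CPM (SD, n = 2). CYCS (cytochrome c) rose by 0.46 on the log2 scale, IDH3A by 0.30 and SDHB by 0.24. Of 8 tested glucocorticoid receptor targets 3 were higher and 3 lower (median 0.03), with FKBP5 at -0.34, ERRFI1 at -0.19, CEBPB at 0.51 and DUSP1 at 0.22. The gene of that receptor, NR3C1, had 0 counts in all 4 libraries. In the vitamin D and thyroid hormone list, CYP27B1, which activates vitamin D, was higher by 0.74 on the log2 scale. CYP27B1 had a mean of only 1.42 CPM in the control, shares exon sequence with METTL1 and lost its call in 9 of 13 alternatives, leaving out any 1 of the 4 libraries among them (edgeR adjusted p = 0.046, 0.0176 to 0.674 across settings).

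Of 7 tested genes of retinoid uptake and metabolism 3 were higher and 1 lower (median 0.11), where 20.5% and 18.1% of all tested genes were. STRA6, which takes up retinol, fell by 1.67 on the log2 scale, and CRABP2, which hands retinoic acid to its receptors, rose from 383 ± 4.21 to 462 ± 2.24 CPM (SD, n = 2). TGM2, a transglutaminase induced by retinoids, rose by 0.67 and DHRS3, a retinaldehyde reductase, by 0.40. The DHRS3 call was lost with DESeq2, with limma on log2(TPM + 1) values and without LacZ control replicate 1. Of 13 tested immediate early genes, the class to which the NR4A receptors belong, 4 were higher and 3 lower (median 0.03). JUND fell by 0.62 and FOS by 0.30 on the log2 scale, as NR4A1 did by 0.43, while FOSL1 rose by 0.80 and EGR1 by 0.45.

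Most nuclear receptors outside the steroid class read the hexamer AGGTCA, alone or in pairs. It was searched on both strands of RefSeq promoters, from 250 bases before to 50 bases after each start. Promoters were found for 36 of the 41 members, with 88 starts among them, and the hexamer stood in 13.6% of these 88 windows against 13.8% of all 35116 promoters. NR1H3 was the only called member with it. The windows of 30 bases below, written 5′ to 3′ along the gene with the hexamer in capitals, show it in NR1H3, in the low but tested ESR2, and in PPARG and NR0B1, which were at or near 0 counts. They lie at chr11:47269699-47269728 (plus strand), chr14:64761200-64761229 (minus strand), chr3:12328671-12328700 (plus strand) and chrX:30327633-30327662 (minus strand) on GRCh37.
NR1H3: tggtttgcctatAGGTCAgaagcatcccct
ESR2: gctcccacttagAGGTCAcgcgcggcgtcg
PPARG: caggaaaagaaaAGGTCActgtctacccaa
NR0B1: ttcgaaccaccgAGGTCAtgggcgaacaca
In PPARG the hexamer follows AA, which makes AAAGGTCA, the element to which NR4A receptors bind as monomers. That longer element, which contains the hexamer, stood in only 3 of the 88 windows (3.41%) and in 1.22% of all promoters. It stood in none of the windows of called members. The 88 windows come from 36 genes and are not independent. A match is a description of the letters and not evidence of binding.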

How the data were processed

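RNA-seq of G401 cells (2 BRD9 KO, 2 LacZ control) was used as deposited. Per the study's methods STAR alignment to hg19 was followed by RSEM, and DESeq2 was their test; tool versions are not stated. The deposited expected counts (estimated counts, unscaled, with ambiguous reads divided by a model) were rounded to whole numbers. The authors' TPM values were used for levels and 1 alternative. The largest posterior standard deviation that RSEM gave for the count of a tested member was 4.46% of that count.

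The members and gene lists were chosen with earlier results of these data known. All 57820 gene models entered 1 fit: edgeR 4.0.16 (R 4.3.3), quasi-likelihood test with TMM scaling, filterByExpr, robust dispersions and no covariate, two-sided, Benjamini-Hochberg adjustment over 15288 genes, called at an adjusted p under 0.05. CPM values are TMM-scaled, and SE follows from the F statistic. Of each list outside the set, the text names up to 4 called genes by smallest p, or, with none called, the 2 of highest level; 2 genes that this rule names are not reported here. The methods call the replicates biological; the labels do not say whether they were separate cultures, so that p-values cover only the spread between these libraries, possibly a technical one. Replicates differed by more than sampling noise (chi-square per degree of freedom of 1.39 and 1.47). The kit of the methods does not mark strand: exons of 12 members overlap those of another tested gene, 11 of them on the opposite strand, and 6 called members are among the 12 (GENCODE v44 on GRCh37). Among the other genes named, exons of SIN3A, BHLHE41, TGM2, SREBF1, ACADVL, FKBP4 and IDH3A overlap a tested gene on the opposite strand. Promoter sequences are from RefSeq (GRCh38.p14) and were placed on GRCh37 by exact match. Alternatives were DESeq2 1.42.0, limma-voom 3.58.1, limma on log2(TPM + 1) for genes with a mean of at least 0.5 TPM, other scalings and filters, a replicate block, each library left out, no mitochondrial genes and a stricter threshold.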

Additional observations from a re-analysis of the deposited data

How the results depend on the processing

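The number of members called lower was 10 and stayed between 8 and 10 in every alternative except limma on log2(TPM + 1), which called 2 lower (NR2F2 and NR4A1) and 0 higher, with 1736 genes changed in all; 10 members were lower and 0 higher there at an unadjusted p under 0.05. The 2 members called higher, NR1D1 and ESRRA, were less stable. DESeq2 called 0 higher and 3573 genes in all, limma-voom called 1 higher, and 0 were higher at an adjusted p under 0.01 with edgeR. Leaving out each library in turn, with the remaining single one assumed to vary like the other group, between 0 and 2 members were higher (0 without LacZ control replicate 1, where edgeR gave 0 higher also at an unadjusted p under 0.05), 8 to 10 lower and 4195 to 4960 genes changed. RLE size factors, library totals alone, at least 1 CPM in all 4 libraries and removal of mitochondrially encoded genes kept all 12 member calls, and no tested member turned direction with a call in any alternative. With no filter 11 of the 12 were kept.

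The replicate numbers are shared between groups, but deviations of same-numbered libraries did not go together (r = -0.05 across 15288 genes, which are not independent replicates). With 2 libraries per group this cannot decide whether libraries are paired by number. With the replicate number as a block all 12 calls were kept and NR4A3 was added to the higher members, now 3. In that fit 6109 genes were changed against 5901. Of the 41 members 16 had too few counts for a test, 8 of them with 0 counts in all 4 libraries.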
